A study of Mus musculus with 6 samples.

Results

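The genes described here were 9 genes listed as markers of inflammatory, or classical, monocytes in the mouse. These were Ly6c2, Ccr2, Cx3cr1 (which is higher in non-classical monocytes), F13a1, S100a4, Fn1, Vcan, Cd14 and Anxa1. They were taken by name from a list of monocyte markers, chosen with earlier results of these data known. They were 9 of the 54532 genes in each expression table. All 9 were found in all 6 tables. Expression was measured by RNA sequencing of sorted cells and given as FPKM, the fragments counted per kilobase of gene and scaled to library size, so that levels can be compared between genes of unlike length.

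The study asked how iron loading and acute myeloid leukemia, each alone and together, affect macrophages. WT macrophages came from C57BL/6 mice without leukemia given PBS, and WT/FE macrophages from such mice given iron dextran. MA9 and MA9/FE macrophages came from C57BL/6 mice carrying leukemia driven by the MLL-AF9 fusion, given PBS or iron. MA9 and MA9/FE leukemia cells were the leukemia cells of PBS and iron treated mice. MLL-AF9 was delivered by a retrovirus that also carried GFP, the transformed cells were transplanted into recipients, and repeated injections started after transplantation. Macrophages were sorted as GFP negative, Gr-1 low, F4/80 positive cells with intermediate CD115. Each condition had 1 library, so no comparison between 2 libraries has a replicate check and none carries a p-value. By the labels the macrophages are from spleen and the leukemia cells from bone marrow, the methods describe marrow macrophages, and this was not settled. Whether cells of several animals were pooled is not stated in the sources used here.

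Classical monocytes leave the bone marrow through the chemokine receptor CCR2, carry the surface protein Ly6C, and enter inflamed tissue, where they can become macrophages. Non-classical monocytes have little Ly6C and much CX3CR1, and patrol the inside of vessels. Iron-recycling macrophages of the spleen and marrow take up old red cells and are partly replaced by monocytes. MLL-AF9 leukemia arises from granulocyte and monocyte progenitors and its cells often carry genes of the monocyte lineage.

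The read totals behind the FPKM scaling lay between 16085349 and 19518360, estimated from the step that 1 read makes in FPKM. At such a depth 1 read of a gene with an exon length of 1 kb was worth 0.0512 to 0.0622 FPKM. The recovered reads summed to other totals, furthest off in MA9/FE macrophages (17492112 against 16085349), and the reason was not tested. Each level or ratio below has a 95% interval from the recovered reads, Poisson for a level and Clopper-Pearson for a ratio, which covers counting error only. The genes for F4/80 and CD115, both used in the sort, were present in all 4 macrophage libraries. Adgre1, which encodes F4/80, stood between 32.2 and 54.5 FPKM, and Csf1r, which encodes CD115, between 56.6 and 111 FPKM. In MA9 and MA9/FE leukemia cells Adgre1 stood at 28.6 and 27.5 FPKM and Csf1r at 66.6 and 70.7 FPKM. The 2 genes therefore do not mark macrophages alone here. The markers of other cells were also present. The 6 B cell markers summed to 1828, 1680, 1013 and 1843 FPKM across WT, WT/FE, MA9, then MA9/FE macrophages, above the sums of 525, 874, 492 and 1123 FPKM for the 16 resident macrophage markers. The macrophage libraries are therefore named here by their labels, and RNA from several cell types was in them. In such bulk samples a smaller number of monocytes and less RNA in each of them cannot be told apart. In the leukemia cells the B cell sum was 19.2 and 18.1 FPKM, and Hoxa9, a gene that MLL fusions switch on, stood at 40.6 and 41.0 FPKM against 0.119 to 0.791 FPKM in the macrophages.

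**Figure D1:**
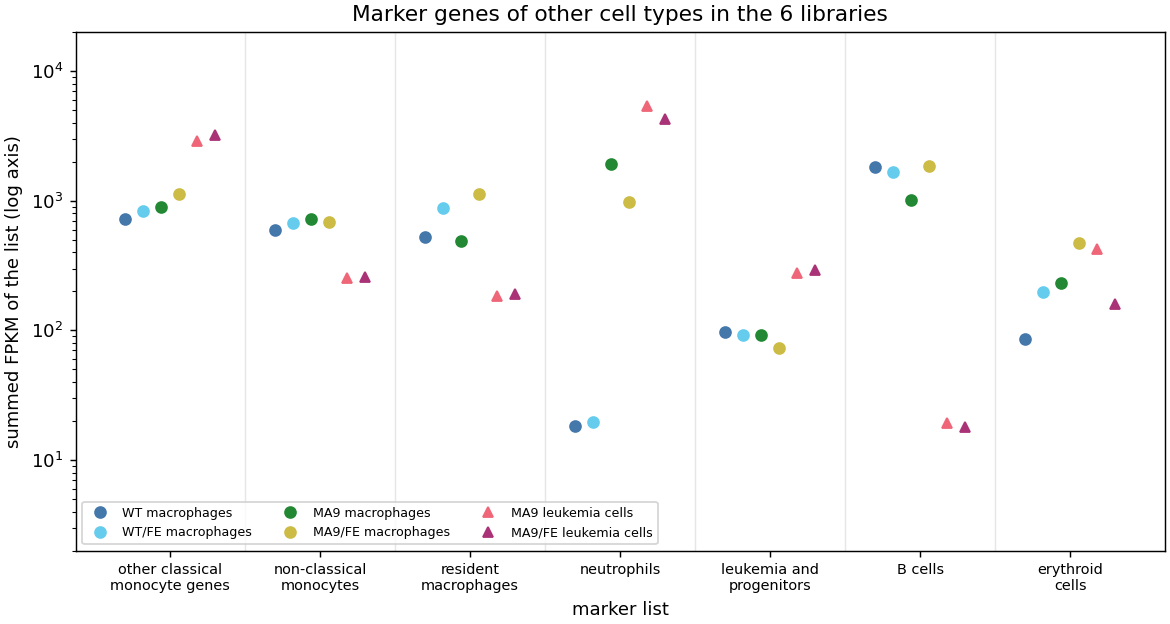
Summed FPKM (log axis) of 7 lists of marker genes, with 1 point a library and no error bars. The neutrophil list was near 20 FPKM in WT (18.4) and WT/FE (19.7) macrophages and at 1919 and 977 FPKM in MA9 and MA9/FE macrophages, while the resident macrophage list was higher in both iron treated macrophage libraries.

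Ly6c2 was the member with the highest level in the 4 libraries from leukemic mice. It has a close copy beside it on chromosome 15, Ly6c1, that was almost silent. The 250 bases before the start of each gene are shown. They lie before the start sites, so their likeness does not bear on how RNA reads of the pair were assigned. The sequences are from RefSeq on GRCm38.p6, both on the minus strand and read 5′ to 3′ towards the start site, at chr15:75111972-75112221 for Ly6c2 and chr15:75048838-75049087 for Ly6c1. Capitals mark AGGAAGT, the core recognised by the myeloid factor PU.1, which in Ly6c2 begins at base -107 from the start and has no match on either strand in Ly6c1.
Ly6c2: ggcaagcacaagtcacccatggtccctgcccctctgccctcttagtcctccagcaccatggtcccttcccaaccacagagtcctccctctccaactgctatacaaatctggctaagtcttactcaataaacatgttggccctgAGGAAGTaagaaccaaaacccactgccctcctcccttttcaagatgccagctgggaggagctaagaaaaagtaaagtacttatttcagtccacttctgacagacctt
Ly6c1: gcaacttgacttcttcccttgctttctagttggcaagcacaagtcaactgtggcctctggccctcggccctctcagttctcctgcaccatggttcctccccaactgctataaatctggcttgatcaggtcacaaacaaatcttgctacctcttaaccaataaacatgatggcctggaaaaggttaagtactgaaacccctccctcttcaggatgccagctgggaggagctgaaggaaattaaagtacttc
The 2 windows were identical at 171 of 210 aligned bases (81.4%). AGGAAGT occurred in 7.80% of 27025 upstream windows of 250 bases, counting both strands. These were 1 window a gene, the first listed in the RefSeq table. It occurred in 1 of the 7 members whose upstream window was searched, taken at the start nearest the annotated 5′ end. Cd14 and Fn1 were not searched. TTGCNNAA, a C/EBP motif, occurred in 9.55% of all windows and in Anxa1 alone among the 7 members. The ETS-IRF composite motif (GGAA and GAAA 2 bases apart), which can overlap AGGAAGT at its GGAA, occurred in 2.38% of windows and in 0 of 7 members. TGANTCA, the AP-1 motif, occurred in 6.87% of windows and in 0 of 7 members.

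Ly6c1 had 2, 2, 2 and 3 reads across WT, WT/FE, MA9, then MA9/FE macrophages and 14 and 8 reads in MA9 and MA9/FE leukemia cells, against 434 to 26085 reads for Ly6c2. Of all stretches of 100 bases in the Ly6c2 transcripts, 5.81% also occurred in a Ly6c1 transcript, and of those of 50 bases 13.9% did. The recovered reads of both genes were whole numbers, which does not show how reads from those stretches were assigned to the copies. The low level of Ly6c1 is uncertain by that part.

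The 9 genes summed to 44.4 and 52.3 FPKM in WT and WT/FE macrophages, to 121 FPKM in MA9 and 104 FPKM in MA9/FE macrophages. Their sum was 753 and 806 FPKM in MA9 and MA9/FE leukemia cells. Ly6c2 made up 23.3% and 18.0% of that sum in WT and WT/FE macrophages, then 55.0% in MA9 against 47.9% in MA9/FE macrophages, reaching 69.7% and 62.0% in the leukemia cells. In every macrophage library Vcan and Fn1 stood under 1 FPKM. F13a1 did so in 3 of the 4, the exception being MA9 macrophages. The leukemia cells had 8 of the 9 genes at 1 FPKM or more, with Vcan below it.

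**Figure D2:**
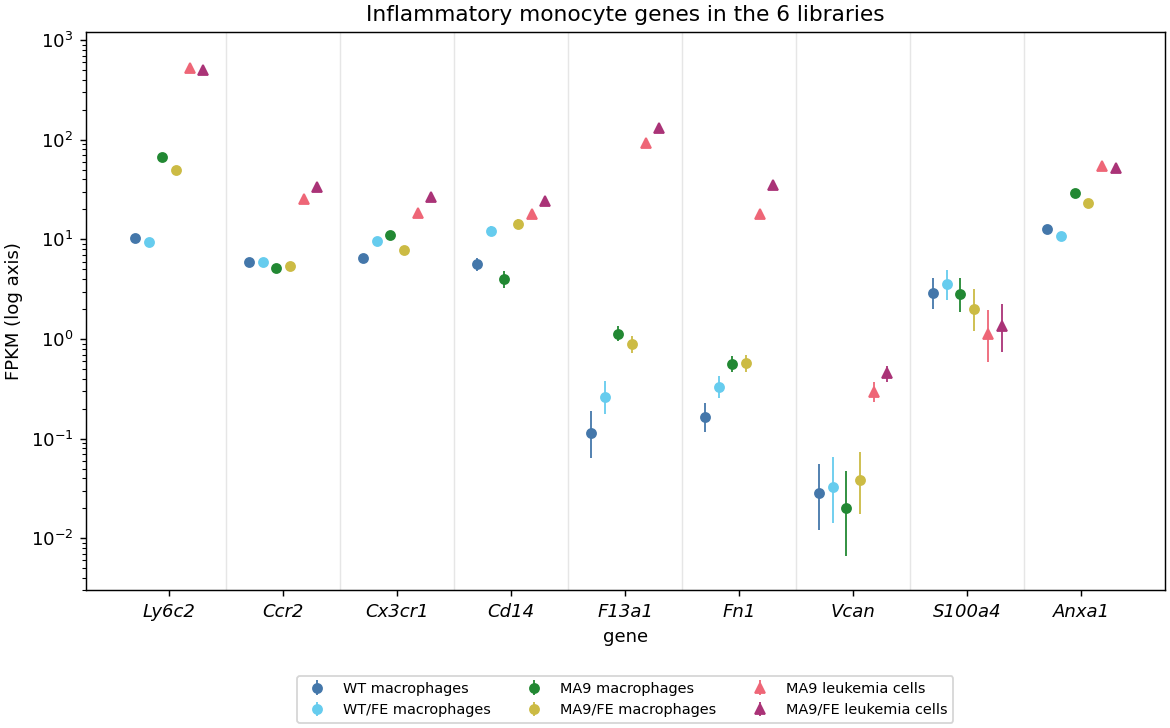
FPKM (log axis) of the 9 genes in the 6 libraries, 1 point a library, with bars for the 95% Poisson interval of the recovered reads, which cover counting error only. Macrophages are circles and leukemia cells triangles. Ly6c2 ranges from 9.43 to 524 FPKM and F13a1 from 0.114 to 133 FPKM. S100a4 is the member with lower points in leukemia cells, from 12 and 14 reads there, and its neighbouring levels have overlapping intervals.

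A gene was counted as different between 2 libraries where log2(FPKM + 1), after scaling the pair by TMM (trimmed mean of M values), differed by at least 1 and either library had at least 10 reads of it. The scaling moved the median of all genes by less than 0.1. Vcan, with 5 to 9 reads, missed the read minimum in all 4 comparisons between macrophages. Counting either direction, 2 of the 9 genes, Ly6c2 and Anxa1, differed between MA9 and WT macrophages, against 4.72% of all 16925 genes tested. The same 2 genes differed between MA9/FE and WT/FE macrophages, against 4.59% of 16565 genes. These comparisons share no library with each other. Of the 9, 1 (Cd14) differed between MA9/FE and MA9 macrophages, against 2.47% of 16508 genes. None of the 9 differed between WT/FE and WT macrophages, where 1.27% of 16753 genes did, or between MA9/FE and MA9 leukemia cells, where 0.863% of 15411 genes did. MA9 leukemia cells differed from MA9 macrophages in 5 of the 9, against 19.8% of 17041 genes, and MA9/FE leukemia cells from MA9/FE macrophages in 6 of the 9, against 22.7% of 16840 genes. All members that differed were higher in leukemia, in leukemia cells or with iron. With a pseudocount of 0.1 in place of 1, S100a4 was also past the limit, as lower in MA9 leukemia cells than MA9 macrophages (-1.28), and Vcan as higher in both leukemia cell libraries.

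The median log2 difference of the members tested was 0.57 for MA9 against WT macrophages and 0.25 for MA9/FE against WT/FE macrophages, with all-gene medians of -0.00301 and 0.01. For iron it was 0.19 in WT macrophages, -0.24 in MA9 macrophages and 0.39 in leukemia cells, with all-gene medians of -0.01, 0.01 and 0.00265. The macrophage comparisons draw on the same 4 libraries, so the iron and leukemia values of a gene are not independent of each other.

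Ly6c2 encodes the GPI-anchored surface protein Ly6C, by which classical monocytes are recognised. It stood at 10.3 FPKM in WT against 9.43 in WT/FE, then 66.6 in MA9 against 49.8 in MA9/FE macrophages. The libraries from leukemic mice were both above those from mice without leukemia, and the ranges did not overlap. Leukemia went with a 6.50-fold higher level without iron (5.94 to 7.13) and a 5.36-fold higher level with iron (4.84 to 5.96). With iron the level was 0.767 of that in MA9 macrophages (0.726 to 0.810) and 0.908 of that in WT macrophages (0.799 to 1.03), the second interval including 1. Gr-1 antibodies commonly also bind Ly6C, so the product of Ly6c2 may itself have been selected by the sort, and this was not tested.

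Other markers moved with Ly6c2. Of the 15 neutrophil markers, 12 exceeded the limit in MA9 over WT and 11 higher in MA9/FE than WT/FE macrophages, and Ly6g and Mmp8 were at 0 in both libraries without leukemia. S100a9, a calcium-binding protein abundant in neutrophils and monocytes, stood at 1.08, 1.03, 646 and 342 FPKM across WT, WT/FE, MA9, then MA9/FE macrophages. Elane, the neutrophil elastase, stood at 1.51, 0.968, 56.8 and 29.4 FPKM in that order, and at 1705 and 1270 FPKM in the leukemia cells. Of the 10 genes of the leukemia and progenitor list, 2 (Myb and Cd34) were higher and 1 (Hoxa5) lower in MA9 than WT macrophages, and none differed between MA9/FE and WT/FE macrophages. The list summed to 97.6, 92.1, 91.5 and 73.4 FPKM in the macrophages and to 276 and 291 FPKM in the leukemia cells. Hoxa10 of that list was at 0 in WT and WT/FE macrophages and at 0.234 and 0.190 FPKM in MA9 and MA9/FE macrophages. The part of neutrophils, progenitors or leukemia cells in the Ly6c2 level was not tested.

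**Figure D3:**
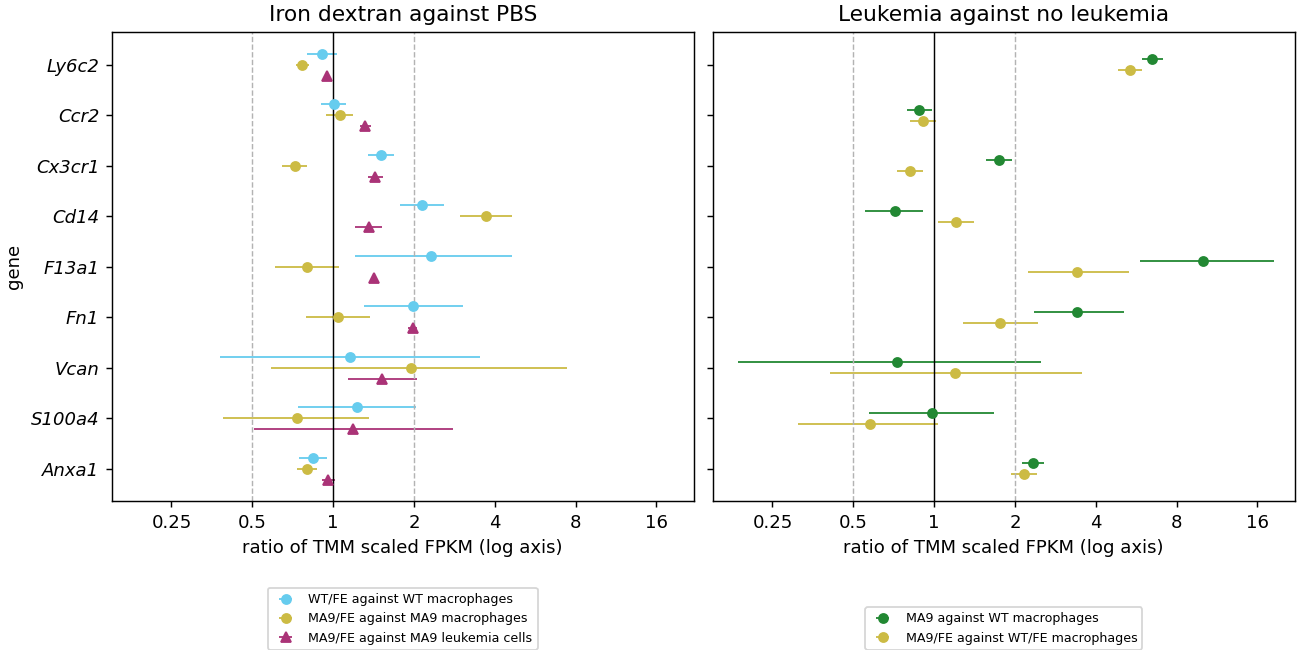
Ratio of TMM scaled FPKM (log axis) for each of the 9 genes, iron against PBS on the left and leukemia against no leukemia in macrophages on the right, with bars for the 95% Clopper-Pearson interval of the reads (counting error only). Circles are macrophages, triangles leukemia cells, the solid line marks no difference and the dashed lines a 2-fold difference. Ly6c2, F13a1 and Anxa1 lie to the right of the upper dashed line in both leukemia comparisons and Fn1 in the one without iron (3.42). For iron, Cd14 does so in both macrophage comparisons and F13a1 in WT macrophages (2.31). The calls in the text use log2(FPKM + 1), which lowers the differences of F13a1 and Fn1.

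Cd14 encodes the surface protein that passes lipopolysaccharide to TLR4. It stood at 5.67 FPKM in WT against 12.2 in WT/FE, then 4.0 in MA9 against 14.4 in MA9/FE macrophages, so both iron treated libraries were above both PBS libraries. The ratio for iron was 2.13 in WT macrophages (1.77 to 2.58) and 3.70 in MA9 macrophages (2.97 to 4.63). On the log2(FPKM + 1) scale these differences were 0.97, just under the limit of 1, and 1.66. With a pseudocount of 0.1, or with the trend with exon length removed, WT/FE macrophages passed the limit as well. Leukemia went with a lower level without iron (ratio 0.713, 0.555 to 0.912) and a higher one with iron (ratio 1.20, 1.03 to 1.41). The second difference, 0.25 on the log2(FPKM + 1) scale, was 0.04 with that trend removed.

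The resident macrophage markers moved with Cd14. Of the 16, 5 were higher in WT/FE than WT macrophages and 8 higher in MA9/FE than MA9 macrophages, and none was lower in either. Their median log2 differences were 0.93 and 1.03. Slc40a1, the iron exporter ferroportin, stood at 18.8, 40.8, 17.6 and 49.4 FPKM across WT, WT/FE, MA9, then MA9/FE macrophages, and C1qa, a complement gene of tissue macrophages, at 67.7, 137, 62.8 and 223 FPKM. Erythroid markers were also higher with iron, 2 of 6 in WT and 3 of 6 in MA9 macrophages, with list sums of 85.7, 198, 234 and 476 FPKM in the same order. The part of either cell type in the Cd14 level was not tested.

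The list of 9 partners of CD14 in lipopolysaccharide sensing mostly stayed level. None of them differed with iron in any cell, and 1 of 9, Lbp, was higher in MA9 than WT macrophages and none in MA9/FE than WT/FE. Tlr4, the signalling receptor, stood at 3.15, 4.89, 3.82 and 4.34 FPKM across WT, WT/FE, MA9, then MA9/FE macrophages. Lbp, which carries lipopolysaccharide to CD14, stood at 0.0530, 0.0493, 1.11 and 0.618 FPKM in that order and at 29.5 and 23.8 FPKM in MA9 and MA9/FE leukemia cells.

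Ccr2 and Cx3cr1 encode the chemokine receptors that separate the 2 kinds of monocyte. Ccr2 was nearly level in the macrophages, at 5.96 FPKM in WT against 6.01 in WT/FE, then 5.19 in MA9 against 5.36 in MA9/FE, and neighbours in the order of levels had overlapping intervals. The ratio of MA9 to WT macrophages was 0.880 (0.790 to 0.980) and that of MA9/FE to WT/FE 0.906 (0.810 to 1.01). Iron gave ratios of 1.004 (0.905 to 1.11) and 1.06 (0.943 to 1.19). The macrophage libraries that had more Ly6c2 therefore did not have more Ccr2.

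Cx3cr1 stood at 6.45 FPKM in WT against 9.74 in WT/FE, then 11.1 in MA9 against 7.82 in MA9/FE macrophages. The levels of MA9 and WT/FE macrophages had overlapping intervals, and the other neighbours in the order did not. With iron the level was 1.503-fold higher in WT macrophages (1.35 to 1.68) and 0.720 of the PBS level in MA9 macrophages (0.647 to 0.802). With leukemia it was 1.74-fold higher without iron (1.57 to 1.94) and 0.816 of the WT/FE level with iron (0.730 to 0.911). The gene was thus highest in the libraries with either iron or leukemia and lower with both or neither, without reaching a log2(FPKM + 1) difference of 1 in any pair of macrophages.

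Of the 12 non-classical monocyte markers, 1 (Ace) was higher in WT/FE and 2 (Spn and Cd300e) higher in MA9 than in WT macrophages, and none differed in MA9/FE macrophages against either WT/FE or MA9. Ace, which encodes angiotensin-converting enzyme, stood at 18.5, 46.0, 33.0 and 22.3 FPKM across WT, WT/FE, MA9, then MA9/FE macrophages. Like Cx3cr1, it was lowest in WT and next lowest in MA9/FE, an order that no other gene of the list had. Treml4, for example, was highest in MA9/FE macrophages (44.4 FPKM) and Itgax was lowest there (88.2 FPKM). The ligands of the receptors were low. Ccl2, the main ligand of CCR2, stood at 0.103 to 0.328 FPKM in the macrophages and at 2.81 and 6.50 FPKM in MA9 and MA9/FE leukemia cells. Cx3cl1 stood between 0.126 and 0.404 FPKM in the 6 libraries, and Ccl7, Ccl8 or Ccl12 was at 0 in 5 of them. Among 5 other chemokine receptors none differed in the macrophage comparisons or with iron in the leukemia cells.

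F13a1, Fn1 and Vcan encode proteins that cross-link or form the matrix: the A subunit of clotting factor XIII, fibronectin and the proteoglycan versican. F13a1 had 15, 30, 130 and 96 reads across WT, WT/FE, MA9, then MA9/FE macrophages, or 0.114, 0.265, 1.13 and 0.886 FPKM. Both libraries from leukemic mice were above both others. The ratio for leukemia was 10.04 without iron (5.87 to 18.5) and 3.39 with iron (2.23 to 5.30), but at these low levels the difference on the log2(FPKM + 1) scale was 0.95 and 0.59 and neither reached the limit.

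Fn1 stood at 0.167, 0.331, 0.564 and 0.575 FPKM in the same order. The ratio for leukemia was 3.42 without iron (2.35 to 5.07) and 1.76 with iron (1.28 to 2.43), and that for iron was 1.98 in WT macrophages (1.31 to 3.03) and 1.04 in MA9 macrophages (0.795 to 1.37). Vcan had 8, 8, 5 and 9 reads, or 0.0203 to 0.0387 FPKM, and at this depth no difference between macrophages was detectable. With a pseudocount of 0.1 in place of 1, F13a1 and Fn1 passed the limit as well for MA9 against WT macrophages. This gave 4 members, against 1982 of all 16925 genes. F13a1 also passed for MA9/FE against WT/FE macrophages, giving 3 members, against 2082 of 16565 genes. With a pseudocount of 1 the all-gene counts were 799 and 760. Of the 11 receptors and enzymes for fibronectin and versican, 7 passed the read minimum in the macrophages and none reached the limit in any of the 4 comparisons. Itga4, an integrin chain that binds fibronectin, came closest, at 45.9, 49.2, 48.2 and 24.7 FPKM across WT, WT/FE, MA9, then MA9/FE macrophages. Its log2(FPKM + 1) difference was -0.94 for MA9/FE against WT/FE and -0.90 for MA9/FE against MA9. Itgb1, the shared integrin chain, stood between 52.8 and 64.8 FPKM, and Cd44, the hyaluronan receptor, between 26.9 and 35.1 FPKM. Of the other transglutaminases, Tgm2 stood between 26.8 and 38.7 FPKM in the macrophages and at 1.97 and 0.827 FPKM in MA9 and MA9/FE leukemia cells, and none of the list differed among macrophages.

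S100a4 encodes a small calcium-binding protein linked to cell movement, and Anxa1 the phospholipid-binding annexin A1, which acts on formyl peptide receptors to limit inflammation. S100a4 was sparse for a monocyte marker, with 33, 35, 28 and 19 reads across WT, WT/FE, MA9, then MA9/FE macrophages and 12 and 14 reads in MA9 and MA9/FE leukemia cells, or 1.13 to 3.57 FPKM. All 4 intervals for its ratios among macrophages included 1. The ratio of MA9 leukemia cells to MA9 macrophages was 0.392 (0.182 to 0.797), and that of the iron treated pair 0.651 (0.302 to 1.37). Others of its family were higher: S100a11 stood at 203 to 302 FPKM in the macrophages and S100a6 at 33.7 to 53.2 FPKM. Of the 9 other S100 genes, 2 differed in each leukemia comparison, S100a8 and S100a9, and none differed with iron.

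Anxa1 stood at 12.8 FPKM in WT against 10.8 in WT/FE, then 29.6 in MA9 against 23.1 in MA9/FE macrophages, and the libraries with and without leukemia did not overlap. The ratio for leukemia was 2.34 without iron (2.13 to 2.57) and 2.16 with iron (1.94 to 2.42). When the trend of the differences with exon length was removed, the second fell under the limit, to 0.93 on the log2(FPKM + 1) scale. Iron gave ratios of 0.843 in WT (0.748 to 0.951) and 0.799 in MA9 macrophages (0.735 to 0.869). The neutrophil markers given beside Ly6c2 moved with Anxa1 as well, and their part in it was not tested. Of the list of annexin A1 receptors and relatives, Fpr1 stood at 4.10, 10.8, 5.73 and 12.4 FPKM and was higher with iron in both WT and MA9 macrophages, as Cd14 was in the second of these. Fpr2 was higher in MA9 than WT macrophages, at 7.53 against 2.10 FPKM, and no other annexin of the list differed among macrophages.

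The additive model of iron and leukemia, fitted with limma to the 4 macrophage libraries, was the only test the design allowed. With 1 library a condition it takes the departure from additivity as the spread. This has 1 residual degree of freedom before moderation, which draws the spread of a gene towards that of all genes, and 6.5 after it. The p-values therefore rest mostly on the departure from additivity of other genes, in these libraries alone. Of 16263 genes, 363 (2.23%) passed an adjusted p of 0.05 for leukemia and 2 (0.0123%) for iron. At an unadjusted p of 0.05 these were 2494 and 622. Ly6c2 rose with leukemia by 2.45 on the log2 scale (SE 0.180, limma adjusted p = 0.00508), and Anxa1 by 1.11 (SE 0.173, limma adjusted p = 0.0358). F13a1 had a difference of 0.77 (SE 0.185) that did not pass (limma adjusted p = 0.112). For iron, Cd14 had a difference of 1.31 (SE 0.216) that did not pass (limma adjusted p = 0.298). No other member passed for either term, and Vcan was not tested. Without a read minimum the adjusted p of both Ly6c2 and Anxa1 was 0.416, as no gene then passed, and with a pseudocount of 0.1 that of Anxa1 was 0.087.

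The 9 genes differed most between leukemia cells and macrophages, a comparison in which cell type, sort and, by the labels, tissue cannot be told apart. F13a1 stood at 93.2 and 133 FPKM in MA9 and MA9/FE leukemia cells, which was 80.3 times the MA9 macrophage level (67.6 to 96.3) and 147 times the MA9/FE macrophage level (120 to 182). Fn1 stood at 17.8 and 35.3 FPKM, or 30.9-fold (25.6 to 37.6) and 60.3-fold (49.8 to 73.6) higher. Ly6c2 stood at 524 and 500 FPKM, or 7.69-fold (7.41 to 7.99) and 9.83-fold (9.41 to 10.3) higher, and exceeded 99.6% of the genes with at least 10 reads in each leukemia library. Ccr2 stood at 25.2 and 33.2 FPKM, or 4.74-fold (4.34 to 5.18) and 6.07-fold (5.57 to 6.64) higher.

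Vcan stood at 0.297 and 0.453 FPKM in MA9 and MA9/FE leukemia cells, from 78 and 117 reads, and its ratios of 14.3 (5.87 to 45.2) and 11.5 (5.85 to 25.7) gave only 0.34 and 0.48 on the log2(FPKM + 1) scale. The gap was smaller for Cx3cr1, with ratios of 1.62 (1.48 to 1.76) and 3.31 (3.02 to 3.64), for Cd14, with 4.36 (3.53 to 5.42) and 1.64 (1.45 to 1.87), and for Anxa1, with 1.80 (1.68 to 1.92) and 2.22 (2.06 to 2.39). As a share of the level in leukemia cells of the same treatment, Ly6c2 was at 1.97% and 1.89% in WT and WT/FE macrophages and at 12.7% and 9.97% in MA9 and MA9/FE macrophages. F13a1 was at 0.122%, 0.200%, 1.22% and 0.667% in that order.

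**Figure D4:**
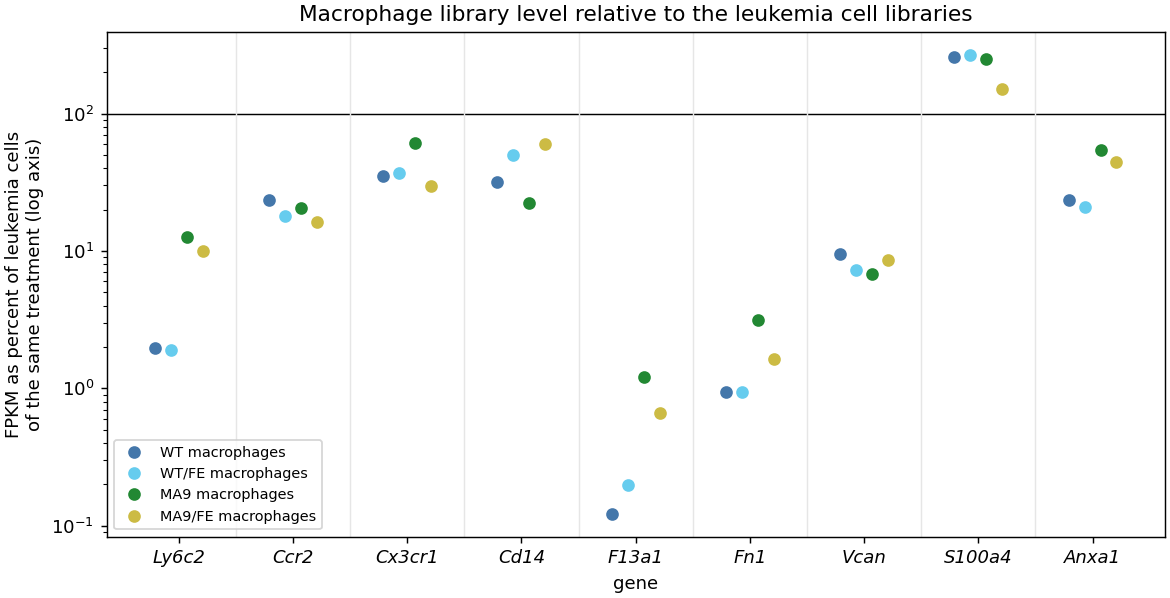
FPKM of the 9 genes in each macrophage library as a percentage of the leukemia cell library of the same treatment (log axis), with 1 point a library and no error bars. The line at 100 marks equal levels. F13a1 lies between 0.122% and 1.22% and Ly6c2 between 1.89% and 12.7%. S100a4 alone lies above the line, between 151% and 266%, but had only 12 and 14 reads in the leukemia cells.

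The other classical monocyte markers, a list of 12 apart from these 9, were likewise mostly higher in leukemia cells: 8 of 12 against MA9 macrophages and 7 of 11 against MA9/FE macrophages, with 1 lower in each. They summed to 727, 831, 894 and 1123 FPKM across WT, WT/FE, MA9, then MA9/FE macrophages and to 2903 and 3248 FPKM in MA9 and MA9/FE leukemia cells. Chil3, a chitinase-like protein of monocytes and neutrophils, and Hp, haptoglobin, were the 2 that were higher in both leukemia comparisons of macrophages. Chil3 stood at 0.471, 1.28, 88.9 and 43.4 FPKM, and Hp at 2.68, 6.12, 25.5 and 18.0 FPKM. By contrast 9 of the 12 non-classical markers were lower in the leukemia cells than in the macrophages of the same treatment, although Cx3cr1 was higher. Treml4, a receptor of non-classical monocytes and some macrophages, stood at 32.1 to 44.4 FPKM in macrophages and at 1.02 and 1.54 FPKM in leukemia cells.

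Iron in the leukemia cells gave small differences in the 9 genes. Fn1 was 1.98-fold higher in leukemia cells with iron than without (1.91 to 2.06), a difference of 0.95 on the log2(FPKM + 1) scale and just under the limit. Cx3cr1 was 1.44-fold higher (1.34 to 1.53), F13a1 1.42-fold (1.39 to 1.46), Cd14 1.36-fold (1.21 to 1.52), Ccr2 1.32-fold (1.26 to 1.38) and Vcan 1.53-fold (1.14 to 2.06). Ly6c2 was at 0.953 of the PBS level (0.936 to 0.969), and the intervals of Anxa1 (0.906 to 1.01) and S100a4 (0.509 to 2.81) included 1. So 6 of the 9 intervals, which cover counting error only, lay above 1 and 1 below it. The share of all genes with such an interval was not counted. By the limit none of the 9 differed here, against 0.863% of all genes. Of 10 monocyte transcription factors, 3 were higher with iron in the leukemia cells: Klf2, from 107 to 277 FPKM, Klf4, from 24.6 to 54.5 FPKM, and Egr1, from 10.2 to 21.9 FPKM. None of the 10 differed in the 4 comparisons of macrophages. Erythroid markers moved the other way, 5 of 6 being lower with iron in the leukemia cells, with sums of 425 and 161 FPKM.

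The remaining lists describe what else the macrophage libraries held. Plasma cell markers summed to 1019, 990, 2064 and 2547 FPKM across WT, WT/FE, MA9, then MA9/FE macrophages. Of them 3 of 5 were higher in MA9 than WT and 2 of 5 in MA9/FE than WT/FE. Ly6c2 and Anxa1 were higher in these leukemia comparisons too, but both stood lower in MA9/FE than MA9 macrophages, where the plasma cell sum was higher. In the same comparisons with leukemia, 5 of 6 erythroid markers were higher each time, but their sums also rose with iron, which Ly6c2 and Anxa1 did not. Basophil and mast cell markers had 5 of 5 and 3 of 5 higher with leukemia, and sums of 16.3, 12.9, 153 and 70.7 FPKM. T cell, NK cell and dendritic cell markers summed to between 49.1 and 153 FPKM a list in the macrophages. Against WT/FE macrophages, MA9/FE macrophages had 3 of 6 T cell, 1 of 6 NK cell and 0 of 6 dendritic cell markers higher. In MA9 against WT macrophages none of these was higher and 1 dendritic cell marker, Cd209a, was lower (-1.52). With iron, 2 of 6 T cell markers, Cd3g and Trac, were higher in MA9/FE than MA9 macrophages, as Cd14 was, and none of the 3 lists differed between WT/FE and WT. None of the 6 B cell markers reached the limit with leukemia, but all were lower in MA9 than WT macrophages. Their median log2 difference was -0.73 there and -0.07 for MA9/FE against WT/FE macrophages. Of them 1, Cd79b, was higher in MA9/FE than in MA9 macrophages, and the median of the 6 was 0.57 in that comparison. Of the Ly6 family other than Ly6c2, 2 of 6 tested were higher in MA9 than WT macrophages (Ly6g and Ly6i) and 3 of 6 in MA9/FE than WT/FE macrophages (Ly6a, Ly6g and Ly6k). The part of these cells in the levels of the 9 genes was not tested.

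The genes with the pattern most like that of a member were found as the smallest Euclidean distance of centred log2(FPKM + 1) over the 6 libraries, among 11045 genes with at least 100 reads in a library. For Ly6c2 they were Cebpe, a transcription factor of granulocytes and a gene of the neutrophil list, Fcnb, which encodes ficolin B, and Ms4a3, a gene of granulocyte and monocyte progenitors, at distances of 0.475, 0.543 and 0.567. Cebpe stood at 0.289, 0.240, 9.34 and 4.66 FPKM in the macrophages and at 78.5 and 56.5 FPKM in the leukemia cells. For Cd14 they were Pla2g15, a lysosomal phospholipase, Lpl, lipoprotein lipase, and Ninj1, which acts in membrane rupture, at 0.763, 0.919 and 0.933. Cx3cr1 was nearest to Nrp1, Zfand4 and Fads1 (0.292 to 0.331), and Anxa1 to Rad51ap1, Ybx3 and Slc22a3 (0.133 to 0.178). Ccr2 was nearest to Ppp1r14c, Afap1 and Trem2 (0.217 to 0.242). F13a1 was nearest to Dmrtb1, Tcf24 and Rab44 (0.942 to 1.38), and Fn1 to Ces1d, Rbp4 and Hnf4a (0.553 to 0.595). S100a4 was nearest to Camk1d, Tmem245 and Tulp4 (0.0727 to 0.157) and Vcan to Uggt2, Garnl3 and Pex19 (0.0547 to 0.0803). S100a4 and Vcan vary little on this scale, so that many genes lie close to them.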

How the data were processed

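RNA from 6 sorted cell samples was sequenced, and the authors deposited FPKM per gene for each library. The labels name Bowtie2 2.2.5, RSEM and the mouse build mm10, and each table lists 54532 genes. The 9 genes and all gene lists were chosen with earlier results of these data known. Gene symbols and exon lengths came from GENCODE M21 for 54495 genes. FPKM times exon length was a whole number of reads, within 0.05, for 96.8% to 97.0% of values above 0. Cd14 and Anxa1 did not give whole reads at that length, and the shortest length that did in all 6 libraries was used for their reads, which leaves their FPKM as deposited. Pairs of libraries were scaled by TMM (30% and 5% trimmed) and compared as log2(FPKM + 1), which understates the difference of low genes, with at least 10 reads in either library. Intervals (95%) were Clopper-Pearson for ratios and Poisson for levels. limma 3.58.1 in R 4.3.3 fitted iron and leukemia over the 4 macrophage libraries, for genes that had 10 or more reads in 2 or more of them, with Benjamini-Hochberg adjustment. All 9 genes are named, with some genes of each list, mostly those of high level or large difference. The 3 nearest profiles of each member are named as well. Genes whose count in a list is 5 or fewer were named after their values were seen. Calls and intervals were tested on simulated data. Alternatives were scaling to the total, to the median of ratios or by TMM after leaving out hemoglobin and immunoglobulin genes, a pseudocount of 0.1, no minimum or 50 reads, removal of the trend with exon length in 20 bins, and a trended limma prior. Python 3.11.15, numpy 2.4.6, pandas 2.3.3 and scipy 1.17.1 were used.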

Additional observations from a re-analysis of the deposited data

Results flagged for a closer look

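For 2 of the 9 genes the ratio lay on opposite sides of 1 in a pair of comparisons, beyond the counting interval of each. With 1 library a condition these differences were not tested. For Cx3cr1 the log2 ratio for iron was lower by 1.06 in MA9 than in WT macrophages (-1.06), as the ratio was 0.720 in the first and 1.503 in the second. The same 4 libraries give a log2 ratio for leukemia that differed by -1.10 with iron against without, from ratios of 0.816 and 1.74. The log2 ratio of Cx3cr1 for iron was 1.0 higher in leukemia cells than in MA9 macrophages, with ratios of 1.44 and 0.720. For Cd14 the log2 ratio for leukemia was 0.76 higher with iron than without, with ratios of 1.20 and 0.713. The first of these was small, 0.25 on the log2(FPKM + 1) scale. With the trend with exon length removed it was 0.04, against -0.37 without iron. The signs then still differed, but the difference with iron had nearly vanished.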

How the results depend on the processing

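Total scaling and median of ratios moved no count by over 1.5 times. A pseudocount of 0.1 gave 784 genes in place of 213 for iron in WT macrophages and 1507 in place of 407 for iron in MA9 macrophages. It gave 1982 in place of 799 for leukemia without iron, 2082 in place of 760 for leukemia with iron, and 629, 5803 and 6491 in place of 133, 3380 and 3819 for iron in leukemia cells and for leukemia cells against MA9 and MA9/FE macrophages. Without a read minimum they were 481 for WT/FE against WT macrophages, 739 for MA9/FE against MA9 macrophages and 375 for iron in leukemia cells, and with 50 reads 116, 234 and 60. Members counted were 1 (Cd14) for WT/FE against WT macrophages with a pseudocount of 0.1 or with the length trend removed, 4 for MA9 against WT macrophages with a pseudocount of 0.1, and 1 for MA9/FE against WT/FE macrophages with the length trend removed. That removal also turned the split of all genes from 488 higher and 272 lower to 324 and 397 for MA9/FE against WT/FE macrophages, and from 198 and 209 to 126 and 305 for MA9/FE against MA9 macrophages. limma called 2 genes for iron and 363 for leukemia. Without hemoglobin and immunoglobulin genes in the scaling it called 6 for iron, with a pseudocount of 0.1 it called 0 (811 at an unadjusted p of 0.05) and 216, without a minimum 0 and 0 (940 and 2877 unadjusted), with 50 reads 72 and 961, and with a trended prior 34 and 802. The cause of these shifts was not tested.

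Of 405 differences of single members, 12 moved by more than counting error and no difference past the limit changed sign. With the length trend removed, 2 small ones did, Ccr2 in WT/FE against WT macrophages (0.00448 to -0.00115) and S100a4 in MA9 against WT macrophages (-0.02 to 0.07). Of 110 adjusted p-values, 103 stayed on their side of 0.05. Cd14 passed for iron with 50 reads (limma adjusted p = 0.00261) and with a trended prior (limma adjusted p = 0.0426), and F13a1 for leukemia in the same fits (limma adjusted p = 0.02 and 0.0119). No library could be left out of the limma fit, because the additive model would have no residual degree of freedom. No paired analysis was possible because each condition had 1 library.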
